A study of Danio rerio with 20 samples.

Results

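Cells of the zebrafish embryo labelled as retinal ganglion cells were compared with cells labelled as amacrine and horizontal cells at 42 hours post fertilization. The members were the 5 count columns labelled as retinal ganglion cells and the 5 labelled as amacrine and horizontal cells, 10 of the 20 libraries of the series. All embryos carried 3 transgenic reporters: a red fluorescent protein driven by ath5 (current symbol atoh7), a cyan one driven by crx, and a yellow one switched on by Gal4 driven by ptf1a. Retinal ganglion cells were sorted as ath5 on, crx off and ptf1a off, and amacrine and horizontal cells as ath5 on, crx off and ptf1a on. The other libraries were 5 of photoreceptors (ath5 and crx on, ptf1a off) and 5 of progenitors (all 3 reporters off), and they enter here through the shared estimate of the spread and as levels. Embryos had been kept at 28 °C, with a period at 21 °C that ended at 30 hours post fertilization, and each replicate pooled 25 retinas, from which 500 cells per library were sorted. The gates follow fluorescent proteins and not the transcripts of the reporter genes, and the labels do not separate amacrine from horizontal cells. The group names used here are those of the labels and stand for the gates. Of 2 lists of ganglion cell markers examined below, 0 genes were called higher in the group of that name. Their median log2 fold changes, that group over the other, were -0.54 and -0.91. Whether the pools came from separate clutches or days is not given in the sources used here, so the p-values measure the spread between these libraries only.

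Ganglion cells are the output neurons of the retina, among the earliest neurons born there, and send their axons to the brain in the optic nerve. They require the basic helix-loop-helix factor atoh7, which acts upstream of pou4f2 and works beside the LIM-homeobox factor isl1. Amacrine and horizontal cells are interneurons, mostly inhibitory, that require ptf1a and express AP-2 factors of the tfap2 family. All of these cells arise from dividing progenitors, and in the zebrafish retina some committed precursors still divide once before they become neurons or as they do so.

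Total counts ran from 21.6 to 27.6 M (1e+06 counts) in retinal ganglion libraries and from 22.9 to 30.8 M in amacrine and horizontal libraries. Genes with at least 10 counts numbered 11054 to 13035 in retinal ganglion libraries and 7031 to 12004 in amacrine and horizontal libraries. Mitochondrial genes took 9.01% to 12.1% of the counts in retinal ganglion cells and 10.3% to 15.9% in amacrine and horizontal cells. Amacrine and horizontal replicate 1 stood apart from the other libraries compared. It had the fewest genes, a TMM scaling factor of 0.68, and 2778 CPM (counts per 1e+06 of the scaled library) summed over 5 blood cell markers, where the other 4 amacrine and horizontal libraries had at most 0.881 CPM and the retinal ganglion libraries at most 3.2 CPM. The leukocyte gene lcp1 had 157 CPM in that library and at most 0.0458 CPM in the other 9. The leukocyte genes ptprc and coro1a had 0 counts in it. In the other libraries, ptprc had 0 counts in amacrine and horizontal cells and 0 to 2.56 CPM in retinal ganglion cells. For coro1a there were 4.5 CPM in amacrine and horizontal replicate 5 and 1.24 CPM in retinal ganglion replicate 1. The common dispersion, the spread between replicates beyond counting error fitted within a group, was 0.825 for the retinal ganglion and 2.3 for the amacrine and horizontal libraries.

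Few genes separated the populations in the edgeR fit used here. Those higher in retinal ganglion cells included 6 listed genes of mitosis and replication and the Notch ligand gene dlb, and 41 of them had at most 3 counts in each amacrine and horizontal library. Those lower included 5 listed transcription factors of amacrine and horizontal cells. Of 13838 genes tested with edgeR's quasi-likelihood test, 114 passed a Benjamini-Hochberg adjusted p of 0.05 and are referred to as called, or 0.824%. In retinal ganglion cells 83 of them were higher (0.600%) and 31 lower (0.224%), and the median log2 fold change over all genes tested, retinal ganglion over amacrine and horizontal cells, was 0.05. The 5 libraries of the groups did not overlap in 68 of the 83 higher genes and in 31 of the 31 lower ones. Over all genes tested they did not overlap in 3.97%, in 2.47% with retinal ganglion cells on top and in 1.50% with them below. At an unadjusted p under 0.05 there were 1915 genes. In bulk libraries of this kind, fewer cells of a type and less RNA per cell cannot be told apart. The number of calls and its split moved with the model: a fit to the 10 libraries alone called 94 genes, of which 53.2% were higher against 72.8% here, and limma voom with a spread of its own for each group called 111, of which 42.3% were higher. On the same 13838 genes DESeq2 called 704 and limma voom 434. Without retinal ganglion replicate 3 there were 68 calls, and without amacrine and horizontal replicate 5 there were 235.

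**Figure D1:**
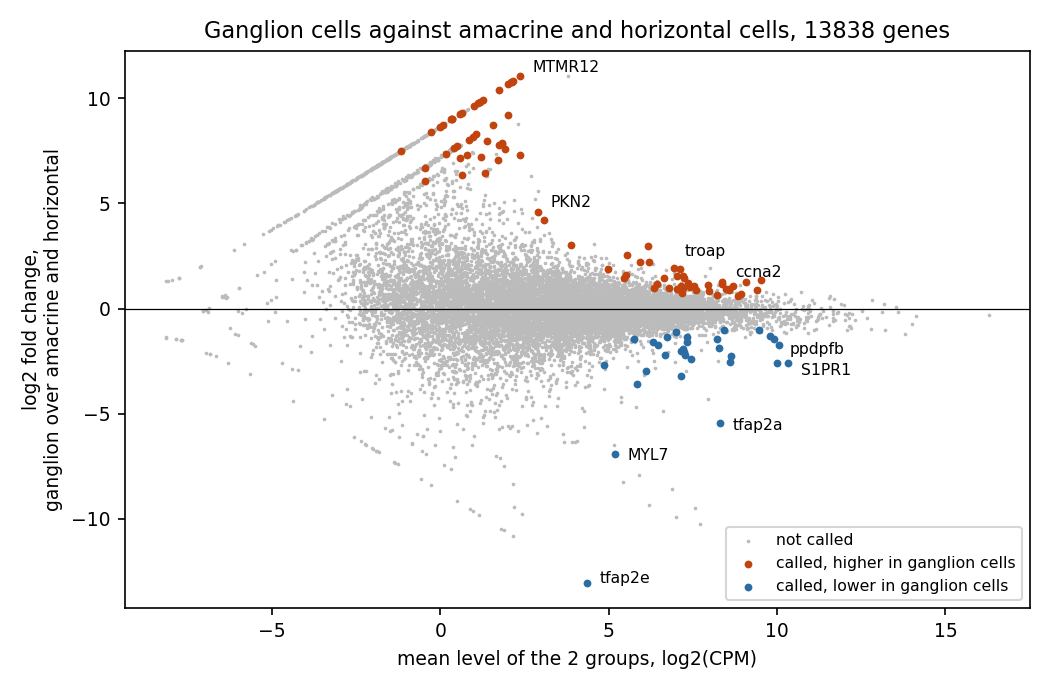
Each point is 1 of 13838 genes, placed by its mean level over the groups compared (log2 CPM, horizontal axis) and by its fitted log2 fold change, retinal ganglion over amacrine and horizontal cells (vertical axis); colours mark the 83 genes called higher and the 31 called lower in retinal ganglion cells. The genes called higher with the largest fitted values lie at low levels, while the genes called lower, except tfap2e, lie at -6.92 or above.

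The reporter genes themselves were examined as a check of the sort. The transcript of atoh7 (ENSDARG00000069552) had 3858, 1834, 2277, 1867 and 2051 CPM in retinal ganglion libraries 1 to 5, and 4300, 1213, 1846, 876 and 816 CPM in amacrine and horizontal libraries 1 to 5. The groups overlapped, and amacrine and horizontal library 1 held the highest value of the 10. That of ptf1a (ENSDARG00000014479), which marks the amacrine and horizontal gate, had 229, 253, 150, 120 and 164 CPM in retinal ganglion libraries and 283, 107, 325, 232 and 54.9 CPM in amacrine and horizontal libraries. The ganglion values lay within the range of the other group, although the yellow reporter was off in the ganglion gate. Progenitors averaged 18.6 ± 15.2 CPM of ptf1a (SD, n = 5). The photoreceptor factor crx (ENSDARG00000011989) had 304 to 444 CPM with a median of 417 in retinal ganglion libraries and 436 to 661 CPM with a median of 614 in amacrine and horizontal libraries. The fitted log2 fold changes were 0.39 for atoh7 (SE 0.49), -0.13 for ptf1a (SE 0.78) and -0.58 for crx (SE 0.31), and none was called (adjusted p 0.85, 0.978 and 0.431, edgeR).

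Several transcription factors known for ganglion cells were present in the ganglion gate, but none of those listed was called higher there than in amacrine and horizontal cells. Of 18 symbols listed, 17 were found and 16 tested; 0 were called in either direction, 5 had a positive log2 fold change and 11 a negative one, with a median of -0.54. None reached an unadjusted p under 0.05 in edgeR, and DESeq2 and limma voom also called 0. These counts leave out a row with the symbol SOX4 on chromosome 19, which was called lower and is described further below. The sum over the list ran from 4227 to 8444 CPM in retinal ganglion libraries and from 3802 to 8961 CPM in amacrine and horizontal libraries, against 517 to 2167 CPM in photoreceptors and 1456 to 1931 CPM in progenitors. It includes atoh7, whose reporter was on in both gates and off in progenitors, so it is no independent measure of ganglion factors. The mean of atoh7 was 2377 CPM in retinal ganglion cells and 796 CPM in progenitors. Some members were near 0 in retinal ganglion cells, with means of 1.47 CPM for pou4f1, 0.73 CPM for isl2a and 1.49 CPM for sox4b. The POU-homeobox factor pou4f2 (ENSDARG00000069737), a central regulator of ganglion cell differentiation, had 104, 43.1, 91.5, 145 and 87.6 CPM in retinal ganglion libraries and 104, 90.1, 102, 123 and 184 CPM in amacrine and horizontal libraries. Progenitors averaged 1.81 ± 1.84 CPM of it (SD, n = 5). The groups overlapped throughout, and the log2 fold change of pou4f2 was -0.36 (SE 0.88, adjusted p 0.943). Its partner isl1 (ENSDARG00000004023) averaged 653 ± 408 CPM in retinal ganglion cells and 1004 ± 382 CPM in amacrine and horizontal cells (mean ± SD, n = 5 each), with a log2 fold change of -0.62 (SE 0.70, adjusted p 0.824). For isl2b, which marks zebrafish ganglion cells, the means were 69.7 ± 31.5 CPM and 174 ± 92.4 CPM in the same order, and for the helix-loop-helix factor ebf3a they were 136 ± 33 CPM and 327 ± 121 CPM. Neither was called (adjusted p 0.676 and 0.739).

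Genes for axons and RNA-binding proteins of ganglion cells gave the same count of 0 higher. Of 23 found, 18 were tested, 1 was called lower and the median log2 fold change was -0.91. At an unadjusted p under 0.05 in edgeR there were 3, beside 1915 of 13838 over all genes, and DESeq2 called 0 higher and 2 lower. The called gene was rbpms2a (ENSDARG00000045930, GRCz11 chromosome 25, 6122823 to 6153077), one of the zebrafish copies of an RNA-binding protein gene used as a ganglion cell marker. It had 23.4, 39.8, 19.3, 56.9 and 44.6 CPM in retinal ganglion libraries and 166, 214, 262, 122 and 81.1 CPM in amacrine and horizontal libraries. No library of one group reached the other, and the log2 fold change was -2.20 (SE 0.51, adjusted p 0.0399, edgeR), but the call was lost in 8 of the 10 fits that left out 1 library, all but those without amacrine and horizontal replicate 1 or 5. The other copy, rbpms2b, averaged 588 ± 210 CPM in retinal ganglion cells and 847 ± 416 CPM in amacrine and horizontal cells (mean ± SD, n = 5 each) and was not called (log2 fold change -0.52, SE 0.76, adjusted p 0.881). The neuronal RNA-binding protein gene elavl3 averaged 373 ± 200 CPM in retinal ganglion cells and 816 ± 355 CPM in amacrine and horizontal cells, and gap43, a growth cone protein gene, 93.3 ± 31.9 CPM and 163 ± 64.6 CPM in that order. Both overlapped between the groups (adjusted p 0.673 and 0.643). The cell adhesion gene alcamb, used as a ganglion cell surface marker in zebrafish, averaged 358 ± 105 CPM in retinal ganglion cells and 236 ± 123 CPM in amacrine and horizontal cells and was not called (log2 fold change 0.60, SE 0.40, adjusted p 0.578).

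Among receptors and ligands that steer axons, 30 were found and 27 tested, 0 were called higher and 1 lower, and the median log2 fold change was -0.97. With limma voom that median was 0.47, beside 0.63 over all genes, so the list has no direction that held across the fits. The called gene was nrp2b (ENSDARG00000038446, chromosome 9, 14367570 to 14504834), a neuropilin that binds semaphorins and vascular growth factors together with a signalling receptor. It had 2.15, 5.37, 12.6, 13.1 and 11.5 CPM in retinal ganglion libraries and 99.6, 86.9, 61.0, 152 and 128 CPM in amacrine and horizontal libraries. All 5 amacrine and horizontal libraries lay above every ganglion library, with a log2 fold change of -3.57 (SE 0.60, adjusted p 0.00391, edgeR), and nrp2b passed the threshold in every fit run.

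Transcription factors of amacrine and horizontal cells included several called lower in retinal ganglion cells. Of 25 found, 21 were tested; 5 were called lower and 0 higher, and 19 had a negative log2 fold change, with a median of -1.71 beside 0.05 over all genes. In 10 of the 21, every retinal ganglion library lay below every amacrine and horizontal library, against 1.50% of all genes tested. Over all genes, 0.224% were called lower. Summed over the list, retinal ganglion libraries held 4097 to 5784 CPM and amacrine and horizontal libraries 7095 to 9535 CPM. The fit to the 10 libraries alone called 9 of the list lower and 0 higher, and DESeq2 and limma voom each called 10 lower and 1, foxn4, higher.

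Of the AP-2 family, 2 members were called lower and 2 more did not overlap between the groups. The gene tfap2a (ENSDARG00000059279, chromosome 24, 8721676 to 8732519) had 13, 24.5, 9.44, 9.85 and 12.9 CPM in retinal ganglion libraries and 524, 757, 565, 483 and 751 CPM in amacrine and horizontal libraries. Its lowest amacrine and horizontal library stood far above its highest ganglion library (log2 fold change -5.46, SE 1.04, adjusted p 0.0118, edgeR). The gene tfap2e (ENSDARG00000008861, chromosome 19, 47429722 to 47456787) had 0 counts in all 5 retinal ganglion libraries and 22.6, 6.34, 38.1, 47.5 and 91.5 CPM in amacrine and horizontal libraries. Its amacrine and horizontal mean of 41.2 CPM was 300-fold a floor of 3 counts in a retinal ganglion library (adjusted p 0.0175, edgeR). For tfap2b the means were 23.9 ± 11.9 CPM in retinal ganglion cells and 472 ± 160 CPM in amacrine and horizontal cells, and for tfap2c 91.4 ± 17.5 CPM and 512 ± 124 CPM in that order (mean ± SD, n = 5 each). Neither pair of groups overlapped, with log2 fold changes of -4.31 (SE 1.18) and -2.49 (SE 0.62). Both missed the threshold here (adjusted p 0.0995 and 0.0682) and passed it in the fit to the 10 libraries alone, in DESeq2 and in both voom fits.

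The remaining family member, tfap2d, did not follow the others. It had 246, 236, 198, 185 and 170 CPM in retinal ganglion libraries and 149, 260, 306, 184 and 156 CPM in amacrine and horizontal libraries, so the ganglion values lay inside the range of the other group (log2 fold change -0.03, SE 0.50, adjusted p 0.995). On the deposited GRCz11 coordinates tfap2d (47717389 to 47732703) lies close to tfap2b (47686629 to 47704973) on chromosome 20. Its fitted direction turned with the model, from -0.13 to 0.15 when 1 library was left out.

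Outside the AP-2 family, 3 more listed factors were called lower in retinal ganglion cells. The LIM-homeobox gene lhx9 (ENSDARG00000056979, chromosome 22, 23238790 to 23253481) had 8.19, 10.6, 16.7, 18.2 and 25.3 CPM in retinal ganglion libraries and 43.7, 37.4, 173, 137 and 221 CPM in amacrine and horizontal libraries (log2 fold change -2.95, SE 0.49, adjusted p 0.00356, edgeR). The groups did not overlap, and with limma voom the adjusted p was just past the threshold, at 0.0508. The homeobox gene barhl2 (ENSDARG00000104361, chromosome 6, 24817852 to 24821681), which in the mouse acts in amacrine and ganglion cell subtypes, had 158, 78.9, 88.8, 147 and 97.8 CPM in retinal ganglion libraries and 751, 618, 553, 830 and 583 CPM in amacrine and horizontal libraries. Photoreceptors and progenitors averaged 12.3 and 13 CPM of barhl2. Its call (log2 fold change -2.55, SE 0.53, adjusted p 0.0202) was lost without retinal ganglion replicate 2, 3 or 5. The eye-field factor pax6b (ENSDARG00000045936, chromosome 7, 15871156 to 15900606) had 798, 401, 496, 379 and 426 CPM in retinal ganglion libraries and 2228, 2023, 1163, 1513 and 1253 CPM in amacrine and horizontal libraries (log2 fold change -1.71, SE 0.27, adjusted p 0.00265). Its copy pax6a averaged 473 ± 144 CPM and 1008 ± 140 CPM in the same order (mean ± SD, n = 5 each) without overlap, and missed the threshold (log2 fold change -1.09, SE 0.28, adjusted p 0.0803). The fits that called it included those without retinal ganglion replicate 1, with the 10 libraries alone, DESeq2 and both voom fits.

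A few listed factors lay the other way without being called. The forkhead gene foxn4, which acts in progenitors that give rise to amacrine and horizontal cells, averaged 703 ± 87.6 CPM in retinal ganglion cells and 461 ± 79 CPM in amacrine and horizontal cells (mean ± SD, n = 5 each). Its groups did not overlap, its log2 fold change was 0.61 (SE 0.17, adjusted p 0.0982), and it was called in DESeq2, in limma voom and without amacrine and horizontal replicate 1 (log2 fold change 0.72, adjusted p 0.0355). The helix-loop-helix gene neurod4 averaged 1574 ± 214 CPM in retinal ganglion cells and 1161 ± 311 CPM in amacrine and horizontal cells, with overlap (log2 fold change 0.44, SE 0.17, adjusted p 0.205).

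**Figure D2:**
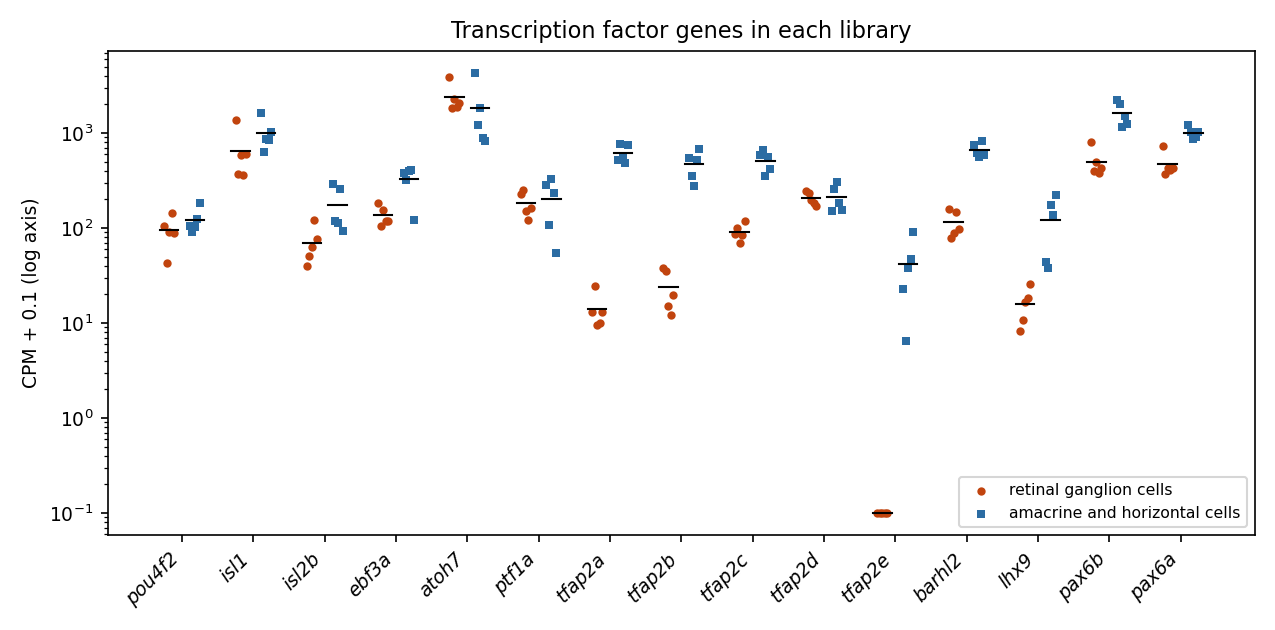
CPM plus 0.1 (log axis) of reporter genes and transcription factors in each of the 5 retinal ganglion libraries (left of each pair) and the 5 amacrine and horizontal libraries (right), 1 point per library. The ganglion factors and ptf1a overlap between the groups, tfap2a and pax6b do not, and tfap2e is at 0 counts in every ganglion library.

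The list of inhibitory transmitter genes, which also holds genes for calcium-binding proteins, dopamine and acetylcholine, was low in both populations at this age. Of 20 genes found, 8 had enough counts to be tested. None of the 8 was called by edgeR, with 4 at an unadjusted p under 0.05 and 3 called by DESeq2, of which 2 were lower. Of the 8, 6 had a negative log2 fold change, and the median was -2.28. Even so, the sum over the list did not overlap: 5 to 58.7 CPM in retinal ganglion libraries and 103 to 261 CPM in amacrine and horizontal libraries. In amacrine and horizontal replicate 1, the glycine transporter gene slc6a9 gave 132 CPM of it. That gene overlapped between the groups, with 0 to 43.8 CPM in retinal ganglion and 10.7 to 132 CPM in amacrine and horizontal libraries (adjusted p 0.539, edgeR). Progenitors averaged 55.6 CPM of slc6a9. The vesicular transporter for GABA and glycine, slc32a1, had 0 counts in 4 retinal ganglion libraries and 3.87 CPM in replicate 5, and had 2.91, 152, 109, 27.7 and 57.9 CPM in amacrine and horizontal libraries. Only amacrine and horizontal replicate 1 fell within the ganglion range. The log2 fold change was -6.49 (SE 1.65, adjusted p 0.0731, edgeR), and slc32a1 was called without amacrine and horizontal replicate 1 (adjusted p 0.0318, log2 fold change -6.80) or without retinal ganglion replicate 5 (-13.78), and also with all libraries in both voom fits and with the track number range in the labels as a covariate. The GABA-synthesizing enzyme gene gad2 had at most 1.79 CPM in a retinal ganglion library and 0.0478, 20.2, 63.2, 20.8 and 55.3 CPM in amacrine and horizontal libraries, and was not called (log2 fold change -6.34, SE 1.98, adjusted p 0.133). DESeq2 and limma voom did call gad2, as did the fit to the groups compared alone without amacrine and horizontal replicate 1.

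Synaptic vesicle genes summed to 121 to 193 CPM in retinal ganglion libraries, against 350 to 631 CPM in amacrine and horizontal libraries, without any call among the 16 tested by edgeR, DESeq2 or limma voom, and with 0 at an unadjusted p under 0.05. Their median log2 fold change was -1.41, and 14 of the 16 were negative. The exocytosis gene stxbp1a averaged 21.0 ± 7.93 CPM in retinal ganglion cells and 72.8 ± 28.2 CPM in amacrine and horizontal cells, and vamp2, a vesicle membrane protein gene, 9.30 ± 2.81 CPM and 34.4 ± 14.6 CPM in that order (mean ± SD, n = 5 each). Neither overlapped between the groups, and neither was called (adjusted p 0.604 and 0.438, edgeR). They were the only 2 of the 16 without overlap, while 1.50% of all genes tested lay that way. The vesicle fusion gene snap25b had 19.8 to 42.9 CPM in retinal ganglion and 37.7 to 206 CPM in amacrine and horizontal libraries, with overlap. Its copy snap25a overlapped too, with 9.56 to 29.1 CPM and 23.4 to 110 CPM in that order.

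Genes of mitosis were called higher in retinal ganglion cells and never lower. All 28 found were tested, all 28 had a positive log2 fold change, with a median of 0.73 beside 0.05 over all genes, and 5 were called higher: ccna2, plk1, cdca3, cdc20 and ccnb1. In 11 of the 28 the ganglion libraries all lay above the amacrine and horizontal ones, against 2.47% of all genes tested. Over all genes, 0.600% were called higher. The sum over the list ran from 5412 to 6991 CPM in retinal ganglion libraries, from 3428 to 4237 CPM in amacrine and horizontal libraries, from 3778 to 5186 CPM in photoreceptors and from 4473 to 5904 CPM in progenitors. With limma voom 28 of 28 were positive too, but there the median of the list, 0.77, lay near the 0.63 over all genes. The positive signs in that fit therefore say little about the list. In 1 fit, without amacrine and horizontal replicate 4, the count was 27 positive and 1 negative. Without amacrine and horizontal replicate 1, 8 of the 28 were called.

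Cyclin A2, ccna2 (ENSDARG00000011094, chromosome 14, 46354648 to 46374870), which drives S phase and entry into mitosis, had 568, 414, 373, 412 and 528 CPM in retinal ganglion libraries and 221, 122, 242, 223 and 208 CPM in amacrine and horizontal libraries. The lowest ganglion library lay above the highest of the other group (log2 fold change 1.18, SE 0.18, adjusted p 0.00237, edgeR). The polo-like kinase gene plk1 (ENSDARG00000058471, chromosome 1, 9153141 to 9161843) had 256, 372, 297, 353 and 420 CPM in retinal ganglion libraries and 145, 186, 117, 116 and 214 CPM in amacrine and horizontal libraries, again without overlap (log2 fold change 1.13, SE 0.19, adjusted p 0.00356). The activator of the anaphase-promoting complex, cdc20, averaged 229 ± 29.1 CPM in retinal ganglion cells and 114 ± 24.6 CPM in amacrine and horizontal cells (mean ± SD, n = 5 each; log2 fold change 1.01, SE 0.19, adjusted p 0.0101). The mitotic entry gene cdca3 (ENSDARG00000070656) had 638, 476, 471, 696 and 562 CPM in retinal ganglion libraries and 291, 221, 225, 300 and 294 CPM in amacrine and horizontal libraries (log2 fold change 1.09, SE 0.21, adjusted p 0.0128). Photoreceptors averaged 230 and progenitors 307 CPM of cdca3. These 4 were called in every fit run. Cyclin B1, ccnb1, averaged 250 ± 47.6 CPM in retinal ganglion cells and 138 ± 29.8 CPM in amacrine and horizontal cells (log2 fold change 0.86, SE 0.20, adjusted p 0.0411), and lost its call in 7 of the 10 fits without 1 library, all but those without amacrine and horizontal replicate 1 or 5 or retinal ganglion replicate 1. The cyclin-dependent kinase gene cdk1 averaged 516 ± 71.2 CPM and 293 ± 53.6 CPM in the same order and fell just short (log2 fold change 0.81, SE 0.20, adjusted p 0.0506), but was called without amacrine and horizontal replicate 1 (adjusted p 0.0433). Other fits that called cdk1 included DESeq2, limma voom and the one to the 10 libraries alone.

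Fewer genes of DNA replication were called. Of 19 tested, 16 had a positive log2 fold change, with a median of 0.59 beside 0.05 over all genes. With limma voom the median over all genes was itself 0.63. Of the 19, 1 was called higher in retinal ganglion cells, against 0.600% of all genes tested. That gene, rrm1 (ENSDARG00000014017), encodes the large subunit of ribonucleotide reductase and had 681, 679, 612, 540 and 495 CPM in retinal ganglion libraries and 352, 340, 309, 446 and 409 CPM in amacrine and horizontal libraries (log2 fold change 0.70, SE 0.14, adjusted p 0.0171, edgeR). Its call held without any 1 library. It was lost in the fit to the 10 libraries alone, with or without amacrine and horizontal replicate 1, and in voom with group weights. The sum over the list was 5326 to 6599 CPM in retinal ganglion libraries, 3258 to 4330 CPM in amacrine and horizontal libraries, 9420 to 12273 CPM in photoreceptors and 10546 to 12020 CPM in progenitors. Retinal ganglion cells lay above photoreceptors in the mitosis sum, without overlap, and below them in the replication sum. The sliding clamp gene pcna averaged 1485 ± 365 CPM in retinal ganglion cells and 917 ± 265 CPM in amacrine and horizontal cells, with overlap, and was not called (log2 fold change 0.70, SE 0.19, adjusted p 0.102). The fits that called it included DESeq2 and the one without amacrine and horizontal replicate 5. Cyclin D1, ccnd1, averaged 1241 ± 137 CPM and 836 ± 271 CPM in that order (log2 fold change 0.57, SE 0.16, adjusted p 0.114) and was called without amacrine and horizontal replicate 1 (0.79, adjusted p 0.00419).

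**Figure D3:**
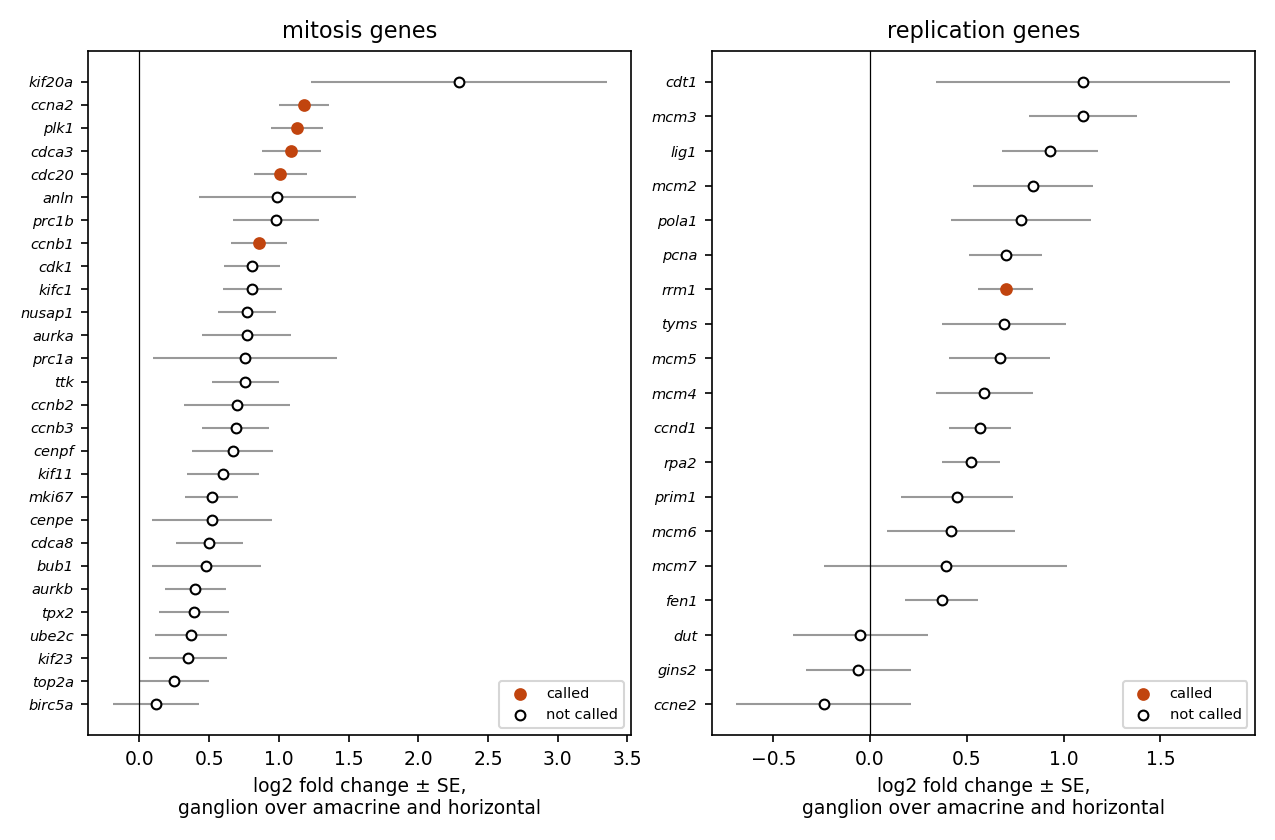
Log2 fold change, retinal ganglion over amacrine and horizontal cells, with its SE, for the 28 mitosis genes and the 19 replication genes tested; filled points passed an adjusted p of 0.05. All 28 mitosis genes lie right of 0, with 5 called, and 16 of the 19 replication genes do, with 1 called.

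Of the Notch pathway and proneural genes, 21 were tested and 1 was called. Over all genes, 0.824% were called, 0.600% of them as higher. Of the 21, 16 had a positive log2 fold change, with a median of 0.59 beside 0.05 over all genes. The median over all genes moved with the fit, to 0.25 with the replicate number as a block and 0.63 with limma voom. The Notch ligand gene dlb (ENSDARG00000004232, chromosome 5, 36693859 to 36701760) had 251, 217, 273, 210 and 149 CPM in retinal ganglion libraries and 105, 38.5, 73.4, 118 and 44.0 CPM in amacrine and horizontal libraries. The groups did not overlap (log2 fold change 1.54, SE 0.27, adjusted p 0.00646, edgeR), and the call held in every fit run. Photoreceptors averaged 29.5 CPM of dlb and progenitors 213 CPM. The Notch target her4.4 (ENSDARG00000009822, chromosome 23, 21462021 to 21463788) had 51.3, 91.5, 26.1, 31.0 and 51.2 CPM in retinal ganglion libraries and 14.1, 10.3, 13, 7.98 and 22 CPM in amacrine and horizontal libraries (log2 fold change 1.90, SE 0.39, adjusted p 0.0175). It belongs to a cluster of near-identical her4 genes, between which reads may have been split or dropped, and its call was lost without amacrine and horizontal replicate 2 or retinal ganglion replicate 2. The call of her4.4 was also lost in both voom fits and in the fit to the 10 libraries alone. The Notch-modifying enzyme gene lfng averaged 483 ± 137 CPM in retinal ganglion cells and 188 ± 107 CPM in amacrine and horizontal cells (mean ± SD, n = 5 each) and was called only without amacrine and horizontal replicate 5, in DESeq2 and in limma voom (log2 fold change 1.36, SE 0.33, adjusted p 0.057 here).

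Markers of retinal progenitors split. Of 14 tested, 1 was called higher in retinal ganglion cells and 1 lower, and the median was -0.39. The retinal homeobox gene rx1 (ENSDARG00000071684) had 298, 130, 189, 169 and 195 CPM in retinal ganglion libraries and 104, 64.7, 43.8, 43.9 and 75.8 CPM in amacrine and horizontal libraries (log2 fold change 1.56, SE 0.35, adjusted p 0.0353, edgeR). Its call was lost without amacrine and horizontal replicate 2, 3 or 4 or retinal ganglion replicate 1, 3 or 5. The HMG-box factor gene sox2 (ENSDARG00000070913), kept on in neural progenitors and in some amacrine cells of the vertebrate retina, had 88.8, 99.7, 76.8, 67.7 and 73.6 CPM in retinal ganglion libraries and 131, 304, 275, 211 and 290 CPM in amacrine and horizontal libraries (log2 fold change -1.57, SE 0.26, adjusted p 0.00356). Progenitors averaged 245 ± 34.6 CPM of sox2, near the 242 ± 71.6 CPM of amacrine and horizontal cells (mean ± SD, n = 5 each). Its relative sox3 averaged 749 ± 146 CPM in retinal ganglion cells and 1699 ± 444 CPM in amacrine and horizontal cells without overlap, and just missed the threshold (log2 fold change -1.18, SE 0.29, adjusted p 0.0554), passing it without amacrine and horizontal replicate 3. With all libraries, sox3 also passed in DESeq2, in both voom fits and with the track number range as a covariate. It passed in the fit to the 10 libraries alone too.

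**Figure D4:**
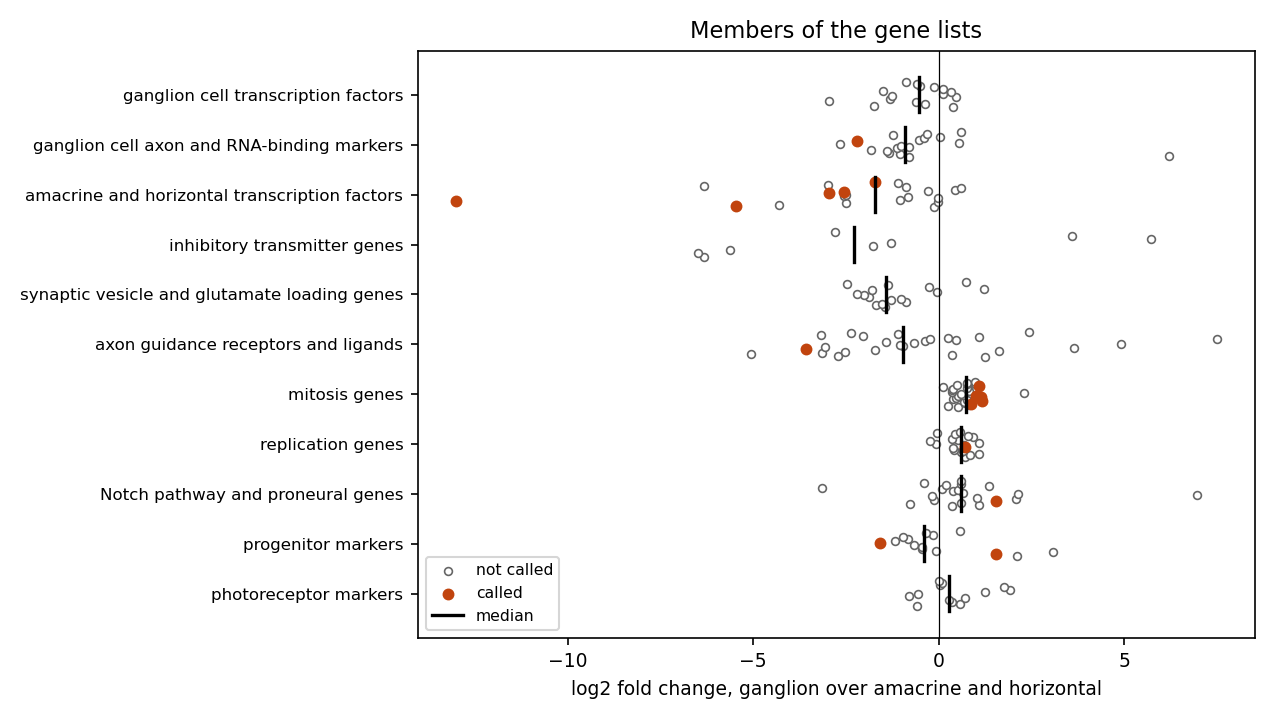
Log2 fold change, retinal ganglion over amacrine and horizontal cells, of every tested member of the gene lists; 1 point per gene, filled where the adjusted p was under 0.05, with a bar at the median of the list. Of the amacrine and horizontal factors, 19 of 21 lie left of 0, with a median of -1.71. Mitosis genes lie right of 0 with a median of 0.73, while ganglion factors spread over both sides with a median of -0.54.

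Among all genes called lower, the smallest adjusted p belonged to ppdpfb (ENSDARG00000031317, chromosome 23, 17427838 to 17429775), a gene named for pancreatic progenitor differentiation. It had 246, 283, 280, 401 and 275 CPM in retinal ganglion libraries and 1409, 1397, 1438, 1888 and 2683 CPM in amacrine and horizontal libraries (log2 fold change -2.57, SE 0.21, adjusted p 8.58e-07, edgeR). The sphingosine-1-phosphate receptor gene S1PR1 (ENSDARG00000042690, chromosome 22, 16038495 to 16042243) had 529, 315, 305, 185 and 511 CPM in retinal ganglion libraries and 3047, 1761, 2172, 2142 and 1878 CPM in amacrine and horizontal libraries (log2 fold change -2.58, SE 0.29, adjusted p 0.00012). Photoreceptors averaged 124 ± 43.5 CPM and progenitors 107 ± 26.6 CPM of S1PR1, below both. Each was called in every fit run. MYL7 (ENSDARG00000019096, chromosome 8, 40457107 to 40464935), a myosin light chain gene known from heart muscle, had at most 1.28 CPM in a retinal ganglion library and 43.1, 134, 70.0, 47.4 and 65.1 CPM in amacrine and horizontal libraries (log2 fold change -6.92, SE 1.35, adjusted p 0.0135), and was also called in every fit.

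Further regulators of transcription stood among the 12 genes with the largest negative values. LMO4 (ENSDARG00000054749, chromosome 6), a LIM-only cofactor gene, had 27.3, 3.8, 34.6, 26.9 and 44.6 CPM in retinal ganglion libraries and 122, 104, 309, 414 and 332 CPM in amacrine and horizontal libraries (log2 fold change -3.22, SE 0.70, adjusted p 0.0278, edgeR). Its call was lost without amacrine and horizontal replicate 3 or 4 or retinal ganglion replicate 1, 2, 3 or 4. The corepressor gene BCOR averaged 7.89 ± 3.46 CPM in retinal ganglion cells and 50.6 ± 29.7 CPM in amacrine and horizontal cells (mean ± SD, n = 5 each), and kept its call without any 1 library, but not in the fit to the 10 libraries alone. The gene with the symbol SOX4 (ENSDARG00000004588, chromosome 19, 28786149 to 28789409), an HMG-box factor that in the mouse promotes ganglion cell differentiation, was lower in retinal ganglion cells. It had 118, 97.2, 130, 246 and 97.1 CPM in retinal ganglion libraries and 533, 523, 443, 963 and 804 CPM in amacrine and horizontal libraries (log2 fold change -2.25, SE 0.48, adjusted p 0.0266). Its call was lost without amacrine and horizontal replicate 4 or retinal ganglion replicate 1, 2, 3 or 5. The row that carries the symbol sox4a, at 28734048 to 28788466 on chromosome 19, overlaps this SOX4 row and had 0 counts in all 20 libraries. Reads on several genes had been left out of the counts. The list symbol sox4a was matched to that empty row, and sox4b to a SOX4 row on chromosome 16. The SOX4 row of chromosome 19 was therefore not counted among the ganglion factors above. The zinc finger homeobox gene zfhx3a averaged 54.6 ± 42.1 CPM in retinal ganglion cells and 292 ± 174 CPM in amacrine and horizontal cells, and lost its call in 7 of the 10 fits without 1 library, all but those without amacrine and horizontal replicate 4 or 5 or retinal ganglion replicate 1. Another HMG-box gene, sox12 (ENSDARG00000025847), named after its values were seen, averaged 56.1 ± 20.6 CPM in retinal ganglion cells and 229 ± 77.9 CPM in amacrine and horizontal cells (log2 fold change -2.03, SE 0.31, adjusted p 0.00237) and was called in every fit run.

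Among the genes called lower, the highest of the 4 group means was that of amacrine and horizontal cells in 28 of the 31 (90.3%). The calls fix their order against ganglion cells, and among all genes tested with a lower mean in ganglion cells that share was 64.2%. The bipolar cell factor vsx1 (ENSDARG00000056292) was one of them: it had 403, 574, 310, 571 and 666 CPM in retinal ganglion libraries and 901, 1456, 918, 1199 and 1827 CPM in amacrine and horizontal libraries (log2 fold change -1.32, SE 0.25, adjusted p 0.0118, edgeR). It was the only one of 5 bipolar markers tested to be called.

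Among the genes called higher, amacrine and horizontal cells had the lowest mean of the 4 groups in 74 of the 83 (89.2%), while retinal ganglion cells had the highest in 21, progenitors in 39 and photoreceptors in 23. Being called higher already places these genes below ganglion cells in amacrine and horizontal cells; among all genes tested with means in that order, amacrine and horizontal cells were lowest in 63.2%. Of the 83, 41 had at most 3 counts in each amacrine and horizontal library, and 19 of these had 0 in all 5. Those 41 were low in retinal ganglion cells too, with means of 0.889 to 10.4 CPM and a median of 4.19 CPM, and had a median of 5.86 CPM in photoreceptors and 5.47 CPM in progenitors. Among all genes tested, 816 had at most 3 counts in every amacrine and horizontal library and 135 had at most 3 in every retinal ganglion library. Between 20 and 36 of the 41 kept their call when 1 library was left out, and 14 did with limma voom with a spread for each group. At so few counts a gene that is missed in amplification and one that is not expressed cannot be told apart.

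MTMR12 (ENSDARG00000059817, chromosome 5, 41105602 to 41124241), which encodes a myotubularin-related protein, was the highest of them in retinal ganglion cells, with 13.3, 19.5, 5.54, 10.7 and 2.87 CPM, and had 0 counts in all 5 amacrine and horizontal libraries. Its retinal ganglion mean of 10.4 CPM was 70-fold a floor of 3 counts in an amacrine and horizontal library (adjusted p 0.00463, edgeR). The gene si:ch211-226m16.2 (ENSDARG00000036785) had 6.07, 14.4, 16.1, 13.4 and 1.07 CPM in retinal ganglion libraries and 0.0352 to 0.0988 CPM in amacrine and horizontal libraries (adjusted p 0.00646). Photoreceptors averaged 65.8 ± 7.53 CPM of it. DHTKD1 (ENSDARG00000016415), a mitochondrial dehydrogenase subunit gene named after its values were seen, had the smallest adjusted p of the higher genes, 0.000198 (edgeR). It had 2.83, 14.6, 5.9, 12.3 and 4.61 CPM in retinal ganglion libraries and 0 counts in amacrine and horizontal libraries. Its retinal ganglion mean of 8.05 CPM was 54.3-fold the same floor.

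The other 42 genes called higher had log2 fold changes of 0.62 to 4.61, with a median of 1.18. PKN2 (ENSDARG00000101293, chromosome 6), a protein kinase gene, had 9.4 to 19.5 CPM in retinal ganglion libraries and 0.296 to 1.0 CPM in amacrine and horizontal libraries (log2 fold change 4.61, SE 0.77, adjusted p 0.0036, edgeR). The purine synthesis gene ATIC had 6.96 to 25.0 CPM in retinal ganglion libraries and 0 to 2.78 CPM in amacrine and horizontal libraries, and averaged 103 CPM in progenitors (adjusted p 0.0197, lost without amacrine and horizontal replicate 2 or retinal ganglion replicate 3). The proteoglycan gene sdc4 (ENSDARG00000059906) had 156, 87.3, 113, 102 and 177 CPM in retinal ganglion libraries and 0.956, 4.05, 7.61, 40.0 and 27.6 CPM in amacrine and horizontal libraries (log2 fold change 2.98, SE 0.61, adjusted p 0.0181). Photoreceptors averaged 321 CPM of sdc4, and its call was lost without amacrine and horizontal replicate 3. The DNA-damage response gene etaa1a averaged 26 ± 4.75 CPM in retinal ganglion cells and 3.18 ± 2.16 CPM in amacrine and horizontal cells, and the nucleoside transporter gene SLC29A1 had 67.5 to 105 CPM in retinal ganglion libraries and 0.939 to 38.8 CPM in amacrine and horizontal libraries. Both lost their calls in 7 of the 10 fits without 1 library: etaa1a in all but those without amacrine and horizontal replicate 1, 3 or 5, and SLC29A1 in all but those without amacrine and horizontal replicate 3, 4 or 5. The gene zgc:55461 averaged 220 ± 29.1 CPM and 59.4 ± 34.9 CPM in the same order, and lost its call without amacrine and horizontal replicate 2 or 3 or any 1 of the 5 retinal ganglion replicates. In the fit to the 10 libraries alone, the calls of ATIC, sdc4, etaa1a, SLC29A1 and zgc:55461 were lost as well.

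At higher levels, NR2E1 (ENSDARG00000017107, chromosome 20, 32437396 to 32446406), the tailless-type nuclear receptor gene that keeps neural progenitors dividing in the mouse, had 82.7, 150, 84.7, 85.8 and 101 CPM in retinal ganglion libraries and 8.89, 13.1, 25.2, 33.2 and 29.6 CPM in amacrine and horizontal libraries. The groups were well apart (log2 fold change 2.19, SE 0.36, adjusted p 0.00356, edgeR), and progenitors averaged 220 ± 62.7 CPM. CLDN5 (ENSDARG00000043716, chromosome 8, 4697764 to 4699320), a tight junction gene used as a marker of endothelium, had 189, 108, 115, 99.7 and 87.5 CPM in retinal ganglion libraries and 28.2, 26.4, 19.0, 43.5 and 14.2 CPM in amacrine and horizontal libraries (log2 fold change 2.19, SE 0.36, adjusted p 0.00356). The 4 endothelial markers found summed to at most 3.44 CPM in a retinal ganglion library and 0.483 CPM in an amacrine and horizontal library, with fli1a at 0 counts in all 10, while CLDN5 was present in all 10. The spindle-associated gene troap (ENSDARG00000094977, chromosome 23, 27575539 to 27589829) had 222, 181, 177, 192 and 203 CPM in retinal ganglion libraries and 41.7, 36.9, 66.6, 32.8 and 80.2 CPM in amacrine and horizontal libraries (log2 fold change 1.92, SE 0.27, adjusted p 0.00133). Photoreceptors averaged 56.5 CPM and progenitors 114 CPM of troap, both under the ganglion mean of 195 CPM. NR2E1, CLDN5 and troap were called without any 1 library, and troap in every fit run.

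**Figure D5:**
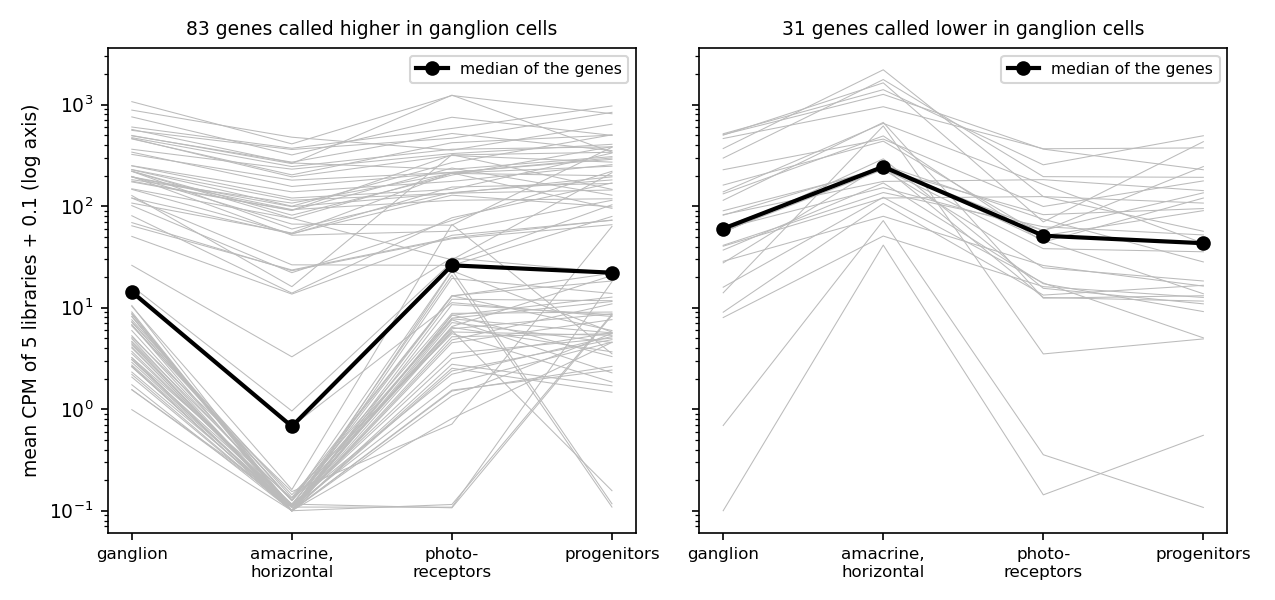
Mean CPM of 5 libraries plus 0.1 (log axis) in each of the 4 populations for the genes called higher (left panel) and lower (right panel) in retinal ganglion than in amacrine and horizontal cells; each grey line is 1 gene and the black line joins the medians of the genes. Amacrine and horizontal cells are the lowest point for 74 of the 83 higher genes and the highest for 28 of the 31 lower ones.

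Markers of other cells that a gate could hold were examined as lists. Of 13 photoreceptor markers tested none was called by edgeR, and the median was 0.27. A positive log2 fold change was found for 9 and a negative one for 3, among them crx with -0.58. At an unadjusted p under 0.05 in edgeR there were 3, beside 1915 of 13838 over all genes, and DESeq2 called 1 higher. Their sum was 2815 to 3353 CPM in retinal ganglion libraries and 1902 to 2324 CPM in amacrine and horizontal libraries, without overlap, against 7088 to 9234 CPM in photoreceptors and 393 to 613 CPM in progenitors. The cone thyroid receptor gene thrb averaged 408 ± 138 CPM in retinal ganglion cells and 107 ± 89.6 CPM in amacrine and horizontal cells (log2 fold change 1.93, SE 0.49, adjusted p 0.0707, edgeR) and was called without amacrine and horizontal replicate 1 (2.55, adjusted p 0.00685). The rod factor nr2e3 averaged 447 ± 68.5 CPM and 188 ± 123 CPM in that order (mean ± SD, n = 5 each; adjusted p 0.462). The part of photoreceptor-marked cells in the genes called higher was not tested. None of 9 Müller glia markers was called by edgeR or DESeq2, with 0 at an unadjusted p under 0.05, and their sums overlapped (311 CPM and upwards in retinal ganglion libraries, 290 CPM and upwards in amacrine and horizontal libraries). Mesenchyme and neural crest markers reached at most 5.51 CPM, lens markers 2.11 CPM and pigment epithelium markers 82.8 CPM in a retinal ganglion library, against 2.39, 3.37 and 22.6 CPM in an amacrine and horizontal library, with none called. Among blood genes, the globin gene hbae1.1 had 2105 CPM in amacrine and horizontal replicate 1 and at most 0.995 CPM in the other 9 libraries.

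Genes for ribosomal proteins and those of the mitochondrial chromosome had mostly negative log2 fold changes without a call. Of 80 ribosomal protein genes, 79 had a negative log2 fold change, with a median of -0.69, and of 33 mitochondrial genes 32 did, with a median of -0.77. At an unadjusted p under 0.05 there were 61 ribosomal and 10 mitochondrial genes. Under the other fits the counts of negative values ran from 78 to 79 and from 27 to 32. Without amacrine and horizontal replicate 1 the medians were -0.54 and -0.50. Of 10 immediate early and stress genes, dusp1, a phosphatase gene of this response, was called higher in retinal ganglion cells (492 ± 126 CPM, against 271 ± 76.2 CPM in amacrine and horizontal cells, mean ± SD, n = 5 each; log2 fold change 0.86, SE 0.19, adjusted p 0.0316, edgeR). Its libraries overlapped, and its call was lost without amacrine and horizontal replicate 1, 2 or 3 or retinal ganglion replicate 1 or 5.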

How the data were processed

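RNA of sorted zebrafish retinal cells was amplified and sequenced with SmartSeq-2 on poly(A) RNA. Per the file headers, the authors counted reads per gene with featureCounts 1.6.3 over exons of Ensembl release 95 (GRCz11), ignoring strand, requiring a mapping quality of at least 1 and leaving out reads with several alignments or several genes; the deposited values are raw counts. Reads had been aligned with GSNAP and the runs converted with bcl2fastq 2.19.1, per the submitters' processing notes. Because strand was ignored, overlapping antisense genes cannot be separated, and near-identical genes lose shared reads. The table holds 32612 features, 32520 genes and 92 spike-ins, which were left out; 29201 genes carry a symbol, and 0 columns had no sample. Of 333 list symbols, 311 matched. No sequences are printed, and 1 gene of the lists is not reported here by name.

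Columns were assigned by name to the 4 labelled groups. With edgeR 4.0.16 (R 4.3.3), genes were filtered by filterByExpr, scaled by TMM and fitted with the quasi-likelihood model over all 20 libraries, with group as the only term, so that the 4 groups share 1 estimate of the spread; the contrast is retinal ganglion over amacrine and horizontal cells, with Benjamini-Hochberg adjustment over all 13838 genes tested, at 0.05. CPM uses the TMM-scaled library size, and means carry the SD of 5 libraries. A gene at 0 in a group was set against 3 counts per library; this floor covers counting error only, since SmartSeq-2 reads carry no molecular identifiers. The script was tested on simulated counts with known changes.

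Genes were named by rule: the 12 largest changes in each direction among called genes that did not overlap, had a symbol and averaged at least 10 CPM in the higher group; the reporter genes; each list's called members and its 3 most abundant; and members of 3 lists in full. The genes gap43, alcamb, vamp2, nr2e3, thrb, fli1a, and those that the text says so of, were named after their values were seen. The members of the comparison and all lists were chosen with earlier results of these data known. Alternatives were RLE scaling, no filter, a fit to the 10 libraries alone, DESeq2 1.42.0, limma 3.58.1 voom with and without group weights, the range of the track number in the labels as a covariate, the replicate number as a block, and leaving out each of the 10 libraries. A fit to the groups compared without amacrine and horizontal replicate 1 was added after seeing the data.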

Additional observations from a re-analysis of the deposited data

Results flagged for a closer look

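Within each group of 5 libraries, single values that stood apart from the other 4 by more than Dixon's 95% critical value were noted for 12 of 94 groups of values. For normally distributed values chance gives this in about 1 of 20 groups. The check used CPM without a log, which need not be normal, and the genes share libraries. The 12 are therefore no measure of an excess over chance. In retinal ganglion cells, replicate 1 stood high in atoh7 (3858 CPM, next 2277), pax6b (798 CPM, next 496) and CLDN5 (189 CPM, next 115). Replicate 2 stood high in NR2E1 (150 CPM, next 101), tfap2a (24.5 CPM, next 13) and the summed blood markers (3.2 CPM, next 0.825). Replicate 4 stood high in ppdpfb (401 CPM, next 283) and SOX4 (246 CPM, next 130), and replicate 5 in ccnb1 (335 CPM, next 239).

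Among amacrine and horizontal libraries, replicate 1 stood high in the summed blood markers (2778 CPM, next 0.881) and the summed microglia markers (157 CPM, next 6.72), and replicate 2 stood low in ccna2 (122 CPM, next 208). That microglia sum was carried by lcp1, with 157 CPM in replicate 1. The high values of atoh7 and pax6b in retinal ganglion replicate 1 lay at the top of their group together with that library's isl1, at 1355 CPM.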

How the results depend on the processing

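DESeq2 called 704 genes (489 higher and 215 lower in retinal ganglion cells) and limma voom 434 (336 higher, 98 lower). The fit to the 10 libraries alone called 50 higher, and voom with group weights 47 higher and 64 lower. The causes were not tested. Without 1 library the calls ran from 68 to 235, with 49 to 193 higher and 19 to 42 lower, and 54 of the 114 genes were called in all 10 such fits, 35 in every fit run. Without amacrine and horizontal replicate 1, in a fit to the groups compared alone that was added after seeing the data, 160 genes were called, of which 48.8% were higher. Same-numbered libraries were not shown to be pairs: their deviations correlated at -0.01 to 0.09, and 3 of 5 correlated best with their own number. With the track number range as a covariate, 106 genes were called (72 higher, 34 lower). With the replicate number as a block, 89 genes were called (59 higher, 30 lower), and pax6a, pcna and slc32a1 passed the threshold (adjusted p 0.0319, 0.0171 and 0.041).

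Of the genes named and tested, directions turned for 3, none of them called. For ptf1a the log2 fold change was 0.20 with voom, 0.19 with group weights, and -0.34 to 0.11 without 1 library. For tfap2d it was 0.02 with no filter, 0.00 with the 10 libraries alone, 0.03 in both voom fits, and -0.13 to 0.15 without 1 library. For hbae1.1 it was 0.80 without amacrine and horizontal replicate 1 and otherwise -11.12 or above without 1 library. For the genes with at most 3 counts in a group, a fold set against the floor allows for counting error only. It is not a lower bound on the difference in the cells, since a gene may have been missed in amplification.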

Other observations

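Of the genes called in every fit run, some belong to no list above and are given here as values, chosen after they were seen. The lamin B receptor gene LBR (ENSDARG00000014013), which ties chromatin to the nuclear envelope, had 1523, 828, 985, 921 and 1084 CPM in retinal ganglion libraries and 285, 263, 425, 483 and 593 CPM in amacrine and horizontal libraries (log2 fold change 1.38, SE 0.22, adjusted p 0.00349, edgeR). Photoreceptors averaged 1228 and progenitors 812 CPM, so amacrine and horizontal cells held the lowest mean of the 4 groups. The T-box factor gene TBX2 averaged 463 ± 98.9 CPM in retinal ganglion cells and 194 ± 58.6 CPM in amacrine and horizontal cells (mean ± SD, n = 5 each), without overlap. The 315 CPM of photoreceptors and the 271 CPM of progenitors lay between these means. The RNA-binding protein gene MSI1, known from neural stem cells and photoreceptors, averaged 496 ± 96.8 CPM and 262 ± 31.6 CPM in the same order, and 1238 CPM in photoreceptors. The Wnt receptor gene FZD2 had 3.43 to 15.4 CPM in retinal ganglion libraries, and in amacrine and horizontal libraries 0 counts in 4 and 0.0478 CPM in replicate 1.

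On the lower side, ID3, an inhibitor of helix-loop-helix factors, had 123, 117, 111, 121 and 190 CPM in retinal ganglion libraries and 984, 509, 330, 280 and 353 CPM in amacrine and horizontal libraries (log2 fold change -1.89, SE 0.33, adjusted p 0.00463, edgeR). Progenitors averaged 120 CPM of ID3, close to retinal ganglion cells. The fatty acid binding protein gene FABP3 averaged 516 ± 88.8 CPM in retinal ganglion cells and 1402 ± 480 CPM in amacrine and horizontal cells, without overlap, and 493 CPM in progenitors.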
